A study of Mus musculus with 10 samples.

Results

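RNA polymerase I (Pol I) and nucleolar genes were examined in undifferentiated mouse embryonic stem cell (ESC) lines. The 10 genes were Ubtf, Rrn3, Taf1a, Taf1b, Polr1a, Polr1b, Polr1c, Ncl, Npm1 and Fbl, chosen by symbol because their products transcribe ribosomal DNA (rDNA) or build the nucleolus, and each symbol matched 1 gene of the 20206 in the table. All 10 passed the filter on low values (the mean of the 10 lines no lower than 10), which left 14354 genes for testing. The cells were wild-type C57BL/6 and labelled male. LPD lines 1, 4, 6, 20 and 40 came from blastocysts of mothers fed an isocaloric low protein diet (9% casein), and NPD lines 8, 15, 21, 36 and 51 from mothers fed a normal protein diet (18% casein). Diets were given from the morning of the mating plug until embryonic day 3.5, so the lines themselves grew in the same media and only their mothers differed in diet. Each line, grown out of a blastocyst, counted as 1 replicate (n = 5 per diet), and p-values measure the spread between these lines. Sequencing was of oligo(dT)-selected mRNA, so ribosomal RNA (rRNA) itself was not measured. Levels are normalised values per gene, that is, estimated counts scaled between lines.

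Pol I works only in the nucleolus, where it copies the repeated rDNA genes into a long precursor that is cut and modified into most of the RNA of the ribosome. UBF, the product of Ubtf, coats active rDNA and bends it, selectivity factor SL1 (TBP with the TAF1 proteins) sits on the promoter, and RRN3 bridges the polymerase to SL1 in response to growth signals. The precursor is then bound by nucleolin, nucleophosmin and fibrillarin, encoded by Ncl, Npm1 and Fbl. Growing stem cells make ribosomes rapidly and have prominent nucleoli, and rDNA is of interest in studies of maternal diet because its dosage and methylation have been examined as targets of early nutrition.

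Promoters were read from RefSeq on GRCm38.p6, 250 bases before to 50 bases after each annotated transcription start, for the 8 genes with an entry. The windows were searched on both strands for the E-box CACGTG, which the growth factor MYC can bind, and for CCGGAAG, a core of ETS factor sites, and the motifs do not overlap. The 8 genes have 14 windows. The E-box was in 1 of the 14, that of Rrn3, beside 7.15% of all 32851 promoter windows of the same length. The ETS motif was in 5 of the 14, beside 8.86% of all windows, and by gene in 4 of the 8 (Taf1a, Taf1b, Rrn3 and Polr1c), beside 9.93% of all 27025 genes with a window. The windows printed here are those of the genes with the largest differences between diets (Taf1a and Polr1b) and 2 genes that were highest in LPD line 20 (Rrn3 and Ncl), with motif matches in capitals (CTTCCGG is the ETS motif on the other strand).
Rrn3, chr16:13780449-13780748, plus strand: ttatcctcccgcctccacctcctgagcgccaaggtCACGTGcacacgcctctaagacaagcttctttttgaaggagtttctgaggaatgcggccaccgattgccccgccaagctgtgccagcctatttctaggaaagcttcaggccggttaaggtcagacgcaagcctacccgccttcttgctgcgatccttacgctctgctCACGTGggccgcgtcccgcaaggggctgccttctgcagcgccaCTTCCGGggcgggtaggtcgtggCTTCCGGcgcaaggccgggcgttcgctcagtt
Taf1a, chr1:183388735-183389034, plus strand: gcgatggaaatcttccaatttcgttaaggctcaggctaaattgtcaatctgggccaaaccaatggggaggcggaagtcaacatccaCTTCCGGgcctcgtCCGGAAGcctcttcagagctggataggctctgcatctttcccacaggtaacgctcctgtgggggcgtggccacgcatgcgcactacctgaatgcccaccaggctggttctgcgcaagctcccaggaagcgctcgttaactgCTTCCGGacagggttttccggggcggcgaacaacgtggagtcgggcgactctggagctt
Polr1b, chr2:129100746-129101045, plus strand: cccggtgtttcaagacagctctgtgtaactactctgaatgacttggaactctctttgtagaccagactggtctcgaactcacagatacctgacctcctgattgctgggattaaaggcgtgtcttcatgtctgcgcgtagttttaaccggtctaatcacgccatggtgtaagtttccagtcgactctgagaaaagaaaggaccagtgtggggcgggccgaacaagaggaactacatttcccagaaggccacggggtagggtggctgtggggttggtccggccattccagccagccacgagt
Ncl, chr1:86359406-86359705, minus strand: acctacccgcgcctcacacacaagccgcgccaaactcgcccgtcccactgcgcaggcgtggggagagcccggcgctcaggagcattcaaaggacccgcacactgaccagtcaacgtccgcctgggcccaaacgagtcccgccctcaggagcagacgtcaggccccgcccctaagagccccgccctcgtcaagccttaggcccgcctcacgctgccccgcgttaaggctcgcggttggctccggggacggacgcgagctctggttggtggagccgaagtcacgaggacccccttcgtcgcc
Counting the transcription start as base 0, the E-boxes of Rrn3 begin at bases -215 and -48 and its ETS matches at bases -5 and 18. Neither motif was in the windows of Polr1b and Ncl. A match describes letters only, and no binding was measured.

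Library totals were 16398672 to 18324979 normalised units, the largest in LPD line 20. Depth was expressed as read equivalents, the total divided by the value of 1 read, estimated from low values. It was 20430177 to 23167911 in the NPD lines, 21916343 in LPD line 1 and 24127688, the highest, in LPD line 20. It was lower in the other LPD lines, at 12357983 in line 6, 11252489 in line 40 and 5841991 in line 4. Even so, the lowest of the 10 genes stood on 93.0 read equivalents in LPD line 4. Of the lists of other cells' markers, the sum of 4 Y-linked genes was 701 in LPD line 4 and 152 in NPD line 15. It was 3706 to 4305 in the other lines. Both sums are low for lines labelled male, and the paper determined sex by PCR of Y-linked genes. Why they were low was not tested. The sum of 11 pluripotency genes was 108252 to 138642 in LPD and 102030 to 139341 in NPD, and 4 of the 11 had a higher mean in LPD. Fibroblast markers summed to 307 to 3353 in LPD and 395 to 5677 in NPD. On the log2 scale 1 of 7 tested, Thy1, was higher in LPD, though its plain mean was lower (88.7 against 95.2). Dcn, Lum, Postn and S100a4 were each listed at 0 in 1 to 7 lines. Primitive endoderm markers summed to 670 to 4736 and 470 to 5445, with Foxa2 listed at 0 in 1 line. By mean log2 value 8 of 8 were higher in LPD. By plain mean Gata6 (321.35 in LPD, 321.45 in NPD) and Dab2 (823 and 826) were not. Trophectoderm markers summed to 3301 to 10338 and 3071 to 6224, and 5 of 6 tested were higher in LPD on the log2 scale. None of these marker genes had an unadjusted p under 0.05, and their part in the results was not tested. A different share of cells and a different RNA content per cell cannot be told apart in these bulk libraries.

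No difference between LPD and NPD was detected in the 10 genes. By limma on log2(value + 1), 0 of 10 had an unadjusted p under 0.05, beside 5.02% of all genes tested (721 of 14354, by direction 2.84% higher and 2.18% lower in LPD), and 0 of 10 had an adjusted p under 0.1, beside 0.0% of all genes. The LPD and NPD lines overlapped in all 10. Overlap was the usual case, since the diets separated fully in only 1.02% of all genes tested (LPD above in 0.523%, LPD below in 0.495%). In size alone 5 genes were higher and 5 lower in LPD, and the median log2 fold change was -0.016, beside 0.0020 over all genes tested. With all lines rescaled to the same total 3 were higher and 7 lower, and the signs of Polr1c and Ncl turned. The 95% intervals nevertheless limit what could have been missed, and the widest of them on the upper side, that of Taf1a, ran to a log2 fold change of 0.50, while the lowest, that of Taf1b, ran to -0.43. Per-line values below are given for LPD lines 1, 4, 6, 20 and 40 and then for NPD lines 8, 15, 21, 36 and 51. In an exact permutation test, which called 0 of 10 at 0.05, the smallest p that 5 against 5 lines can give is 0.00794.

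**Figure D1:**
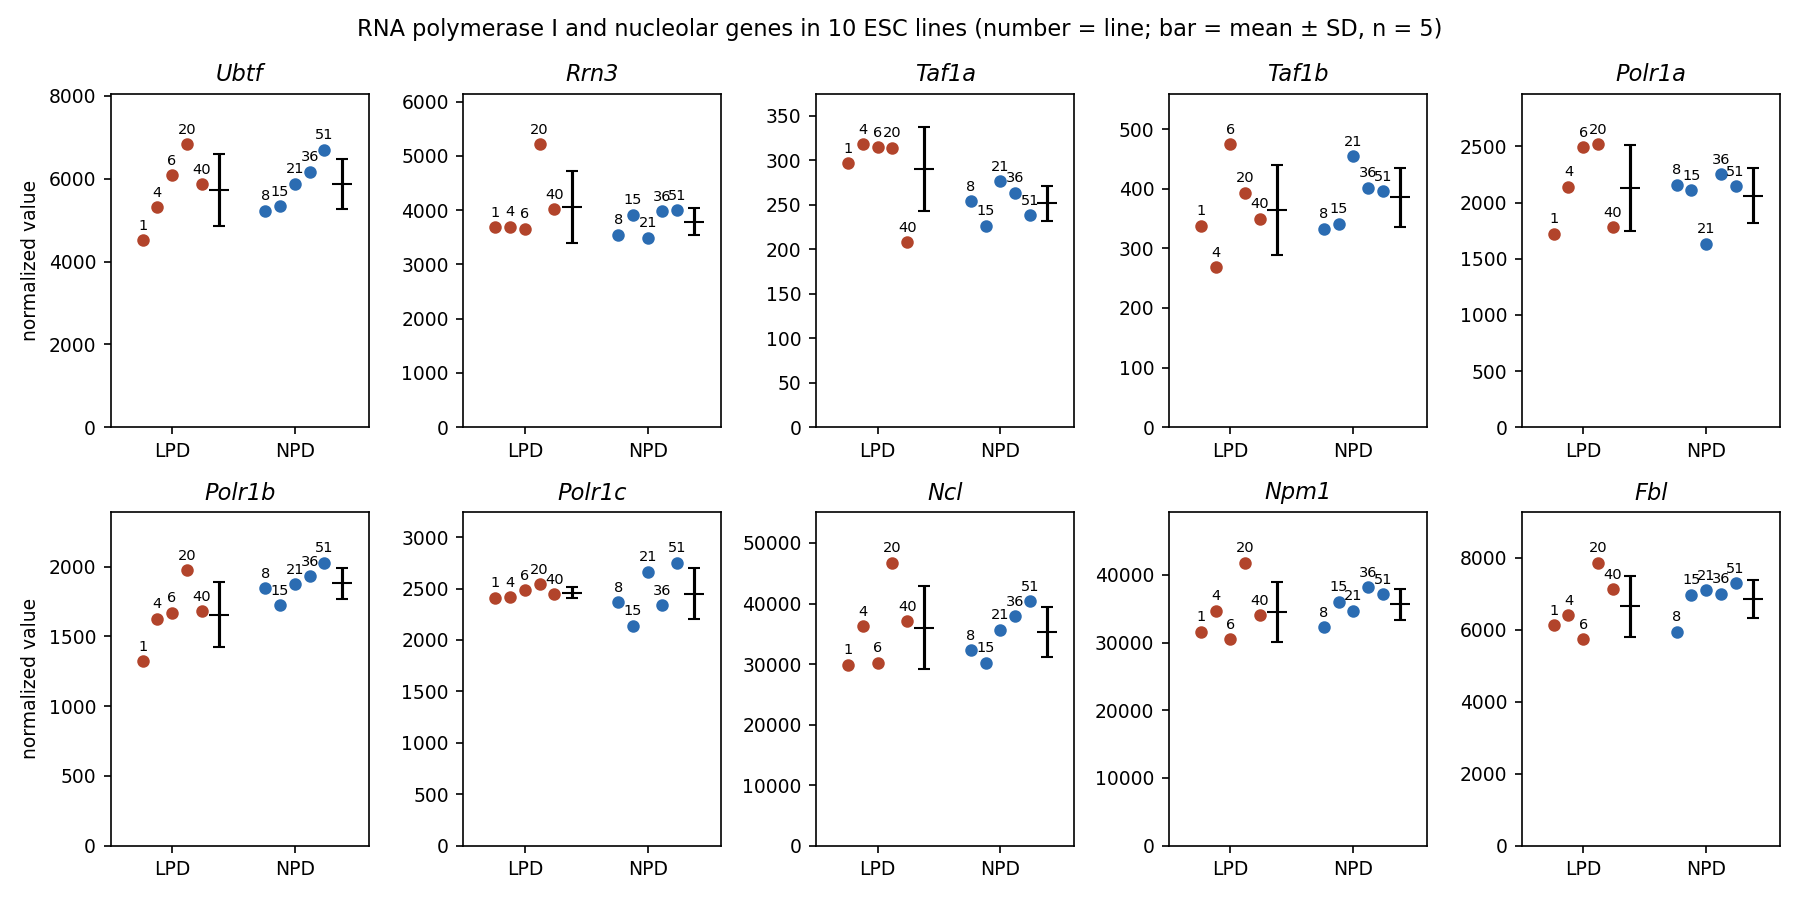
Normalised value (vertical axis, from 0, a separate scale for each gene) of the 10 genes in the 5 LPD and 5 NPD lines, with the line number above each point and a bar at the mean ± SD. The diets overlap in every panel, LPD line 20 is the highest point for Ubtf, Rrn3, Polr1a, Ncl, Npm1 and Fbl, and LPD line 40 lies alone at 208 for Taf1a.

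Ubtf (chr11:102304560-102319742, minus strand) encodes UBF, which keeps rDNA open for transcription. Its values were 4520, 5307, 6084, 6829 and 5861 in LPD and 5230, 5339, 5878, 6171 and 6699 in NPD. The LPD lines spanned the whole NPD range, with LPD line 1 below and LPD line 20 above every NPD line. The means were 5720 ± 865 in LPD and 5863 ± 606 in NPD (SD, n = 5), a log2 fold change of -0.04 ± 0.11 (SE, limma p = 0.709, adjusted p = 0.997, exact permutation p = 0.722).

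Taf1a and Taf1b encode promoter-binding subunits of SL1, and they were the least abundant of the 10 genes. Taf1a (chr1:183388981-183410198, plus strand) measured 297, 318, 315, 314 and 208 in LPD and 254, 227, 277, 264 and 238 in NPD. LPD lines 1, 4, 6 and 20 were above every NPD line, and LPD line 40 was below all of them. The log2 fold change was 0.19 ± 0.14 (SE, 95% interval -0.12 to 0.50, limma p = 0.202, adjusted p = 0.994, exact permutation p = 0.183). Without LPD line 40 the log2 fold change was 0.31 and passed an unadjusted limma p of 0.05 (adjusted p = 0.656). That line was the lowest of the LPD lines, so leaving it out had to raise the LPD mean. No conclusion is drawn from that fit. Taf1b (chr12:24498359-24558539, plus strand) measured 338, 268, 475, 393 and 350 in LPD and 333, 342, 455, 402 and 396 in NPD. It varied most of the 10, by 1.77-fold from LPD line 4 to LPD line 6, and both extremes were in the LPD group. Its log2 fold change was -0.10 ± 0.15 (SE, limma p = 0.548, adjusted p = 0.994, exact permutation p = 0.603).

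Rrn3 (chr16:13780708-13814839, plus strand) encodes the growth-regulated initiation factor also known as TIF-IA. It measured 3687, 3693, 3661, 5213 and 4023 in LPD and 3545, 3921, 3491, 3979 and 3996 in NPD. LPD line 20 stood apart, LPD line 40 was just above the NPD range, and the other LPD lines lay within it. The means were 4056 ± 664 and 3786 ± 247 (SD, n = 5), and the log2 fold change of 0.09 ± 0.10 (SE, limma p = 0.414, adjusted p = 0.994, exact permutation p = 0.587) became -0.0062 without LPD line 20.

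Of the 3 polymerase subunits, none differed between diets past the test. Polr1a, which encodes the largest, catalytic subunit (chr6:71909053-71984935, plus strand), measured 1721, 2139, 2494, 2518 and 1778 in LPD and 2157, 2110, 1635, 2254 and 2143 in NPD. LPD lines 6 and 20 were above all NPD lines, and the lowest value of the 10 was that of NPD line 21. The log2 fold change was 0.04 ± 0.13 (SE, limma p = 0.770, adjusted p = 0.997, exact permutation p = 0.857).

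Polr1b, the gene of the second largest subunit (chr2:129100995-129126594, plus strand), had the smallest p of the 10. It measured 1322, 1627, 1670, 1976 and 1680 in LPD and 1846, 1724, 1874, 1932 and 2026 in NPD. LPD lines 1, 4, 6 and 40 were below every NPD line, and LPD line 20 was within the NPD range. The means were 1655 ± 232 in LPD and 1880 ± 111 in NPD (SD, n = 5), a log2 fold change of -0.19 ± 0.10 (SE, 95% interval -0.41 to 0.03, limma p = 0.0801, adjusted p = 0.994, exact permutation p = 0.0794). As a percentage of the NPD level the interval ran from -25.0% to 1.88%. Without LPD line 20 the log2 fold change was -0.26, past an unadjusted limma p of 0.05 (adjusted p = 0.968). That line was the highest of the LPD lines, so leaving it out had to lower the LPD mean. No conclusion is drawn from that fit. Rescaling all lines to the same total gave -0.23, also past an unadjusted limma p of 0.05 (adjusted p = 0.906). That rescaling also moved the median of all genes tested from 0.0020 to -0.032, and the share called lower from 2.18% to 3.06%.

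Polr1c encodes a subunit that Pol I shares with RNA polymerase III (chr17:46243920-46248054, minus strand). It measured 2411, 2416, 2486, 2542 and 2445 in LPD and 2368, 2139, 2663, 2336 and 2749 in NPD. The LPD lines lay close together inside the wider NPD range. It was the steadiest of the 10, with 1.29-fold between the extreme lines and an SD within diets of 0.11 on the log2 scale, lower than in all but 6.48% of the 10455 genes whose mean reached 100. The log2 fold change was 0.01 ± 0.08 (SE, 95% interval -0.17 to 0.19, limma p = 0.893, adjusted p = 0.997, exact permutation p = 0.881).

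Ncl, Npm1 and Fbl encode abundant nucleolar proteins. Nucleolin, from Ncl (chr1:86344719-86359400, minus strand), binds rDNA chromatin and the young precursor. Its values were 29911, 36290, 30198, 46710 and 37033 in LPD and 32326, 30237, 35648, 37874 and 40376 in NPD. LPD line 20 was the highest line, and LPD lines 1 and 6 were below every NPD line, so that the LPD group held both extremes. The log2 fold change was 0.02 ± 0.13 (SE, limma p = 0.894, adjusted p = 0.997, exact permutation p = 0.929).

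Nucleophosmin, from Npm1 (chr11:33152287-33163206, minus strand), is a chaperone of the outer, granular layer of the nucleolus. It measured 31631, 34697, 30522, 41785 and 34064 in LPD and 32302, 36052, 34720, 38202 and 37122 in NPD. Again LPD line 20 was highest and LPD lines 1 and 6 lowest. The log2 fold change was -0.05 ± 0.10 (SE, limma p = 0.606, adjusted p = 0.994, exact permutation p = 0.571). Transcripts of 4 processed pseudogenes match Npm1 at 95% identity or more over at least 200 bases, and the most abundant of those in the table, Gm6477, had a mean value of 24.8, or 0.0707% of that of Npm1.

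Fibrillarin, from Fbl (chr7:28169710-28179269, plus strand), is the methyltransferase of the box C/D small nucleolar ribonucleoproteins (snoRNPs). It measured 6133, 6402, 5734, 7863 and 7126 in LPD and 5950, 6974, 7098, 7011 and 7296 in NPD. NPD line 8 was below the other NPD lines, and LPD line 20 was above all lines. The log2 fold change was -0.05 ± 0.10 (SE, limma p = 0.608, adjusted p = 0.994, exact permutation p = 0.595). Fbl shares 690 aligned bases at 99.6% identity with a non-coding transcript of Tulp4, a gene with a mean value of 725, so a part of the reads could have been split between them.

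**Figure D2:**
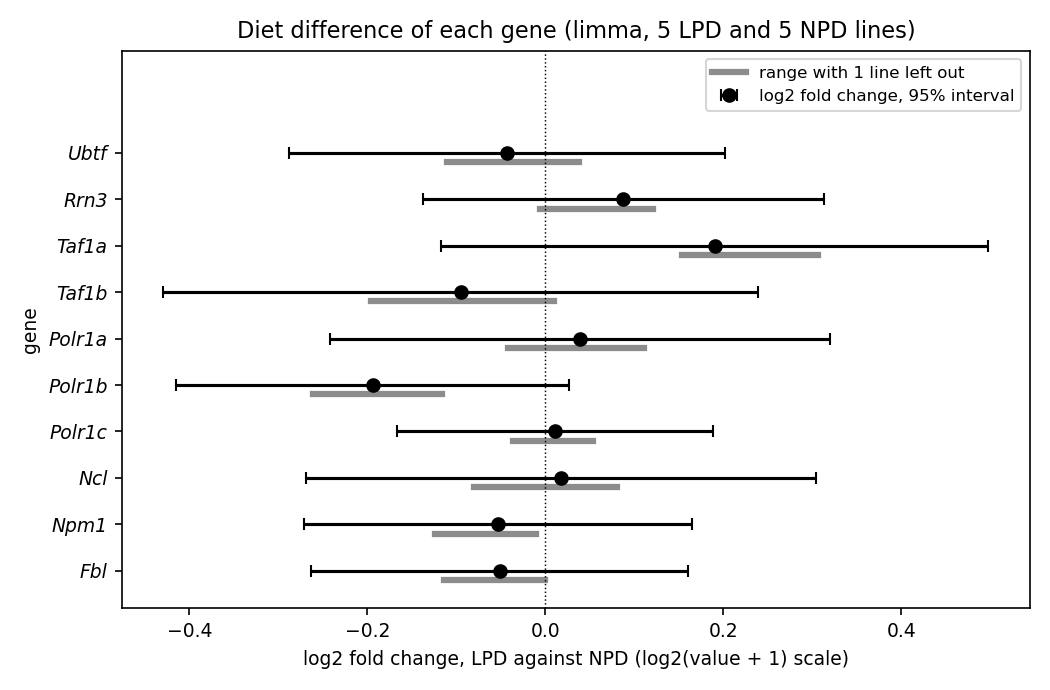
Log2 fold change of LPD against NPD for each of the 10 genes (horizontal axis, log2(value + 1) scale; points with 95% intervals from limma, n = 5 lines per diet), with grey bars for the range when each line was left out in turn. Every interval crosses 0, and Polr1b at -0.19 and Taf1a at 0.19 lie farthest from it.

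Compared per kilobase of the longest protein-coding transcript, levels of the 10 genes differed far more between genes than between lines. Npm1 was highest at 21500 ± 2057 normalised units per kb (SD over 10 lines), followed by Fbl at 5646 ± 563, Ncl at 4348 ± 649 and Polr1c at 1869 ± 130. Ubtf at 1234 ± 151 and Rrn3 at 1095 ± 138 came next, then Polr1b at 442 ± 52.2, Polr1a at 227 ± 32.8, Taf1a at 184 ± 26.8 and Taf1b at 170 ± 27.9. Most neighbours in this order kept it in all 10 lines. Ubtf exceeded Rrn3 in 9 of 10 lines, Polr1a exceeded Taf1a in 8, and Taf1a exceeded Taf1b in 4, and only the last of these pairs had a mean log2 ratio (0.12) smaller than its SD over lines (0.31), against 0.17 ± 0.16 and 0.30 ± 0.25 for the others. The order also rests on the length used, because per kilobase of coding sequence Ncl was at 16813 and above Fbl at 6889, and Taf1b at 213 was above Taf1a at 199.

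The clearest pattern among the genes was between lines and not between diets. LPD line 20 had all 10 genes above their own 10-line means, with a median deviation of 0.24 on the log2 scale (0.0078 over all genes tested). It was the highest line for 6 of the 10, beside 14.4% of all genes tested. LPD line 1 was the reverse, with 1 of 10 above its mean, a median deviation of -0.14 (0.0013 over all genes tested) and the lowest value of 3 genes. Shares of all genes above their own mean, or lowest, in a line were not computed. Among NPD lines, line 51 had 9 of 10 genes above their means and line 8 had 2 of 10. Together the 10 genes made up 0.489% of all normalised signal in LPD line 6 and 0.634% in LPD line 20. LPD line 20 also had the largest total. After all lines were rescaled to the same total its median deviation was 0.14 (-0.09 over all genes tested). It was then the highest line for 3 genes, beside 7.59% of all genes tested, and had 8 of 10 above their means. NPD lines 36 and 51 each had 9 of 10 above, and NPD line 36 had a higher median, 0.16. Deviations of different genes in 1 library share its depth and scaling, and the part of these in the pattern was not tested.

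**Figure D3:**
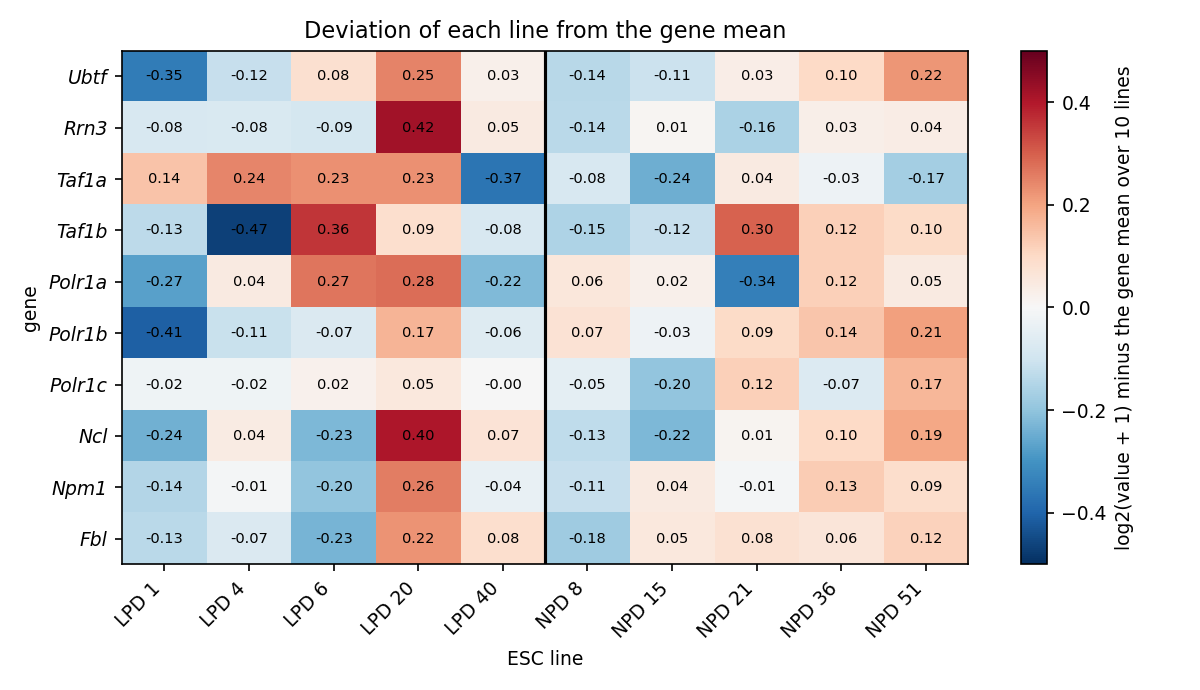
Deviation of each ESC line (columns) from the mean of the 10 lines for each gene (rows), as log2(value + 1) in colour and in figures, with a black line between the diets. The column of LPD line 20 is above 0 for all 10 genes, from 0.05 for Polr1c to 0.42 for Rrn3, and Taf1a differs from most genes in LPD lines 1, 4 and 40.

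LPD line 20 also stood out over the other genes of ribosome synthesis, though not in every list. Of 143 such genes in 9 lists, 142 were tested (Npm2, the oocyte nucleoplasmin, was under the filter with 1.14 to 11.3). LPD line 20 was the highest line for 71 of the 142, beside 14.4% of all genes tested, and for 46 after rescaling to the same total, beside 7.59%. Its median deviation was 0.28 over the 28 genes of the small-subunit processome, the particle that assembles on the nascent precursor, with 27 of them above their own means. For the 28 large-subunit processing factors the median was 0.26, with 28 of 28 above. Over all genes tested the median in that line was 0.0078, and the share above their own means was not computed. In LPD line 20 the 10 other Pol I subunits had a median of 0.11 and the 14 rDNA chromatin factors 0.08. For these Pol I subunits the medians of LPD line 40 (0.26), NPD line 21 (0.18) and NPD line 51 (0.15) were higher. After rescaling to the same total the medians of LPD line 20 were 0.19 and 0.16 for the small-subunit and large-subunit lists. They were 0.0088 for the Pol I subunits and -0.02 for the chromatin factors. On that scale LPD line 20 had 106 of the 142 genes above their own means, and NPD line 36 had 110.

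**Figure D4:**
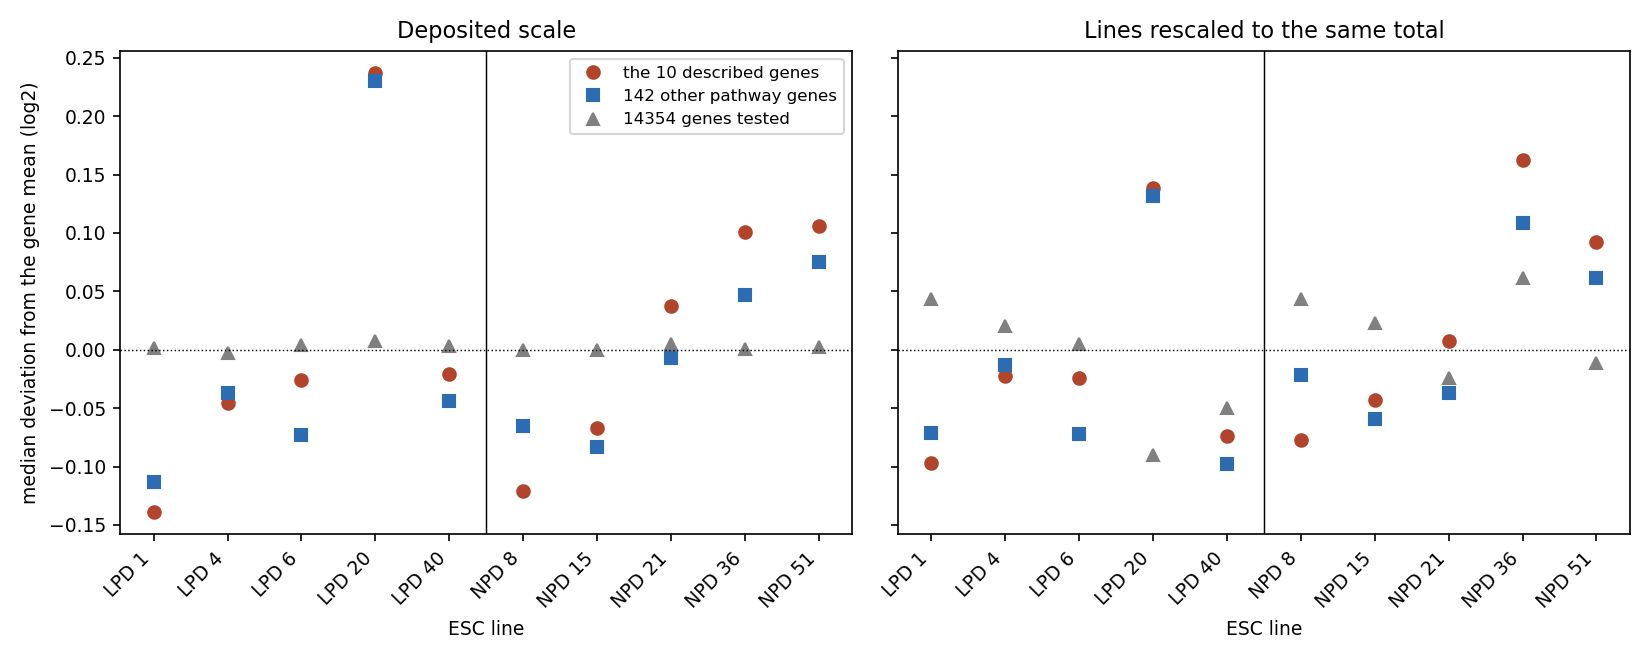
Median deviation from the gene mean (vertical axis, log2) in each line for the 10 genes, 142 other genes of the pathway and all 14354 genes tested, on the deposited scale (left) and after rescaling to the same total (right). LPD line 20 has the highest median of the 10 genes on the left (0.24), and NPD line 36 has it on the right (0.16), where the median of all genes in LPD line 20 lies at -0.09.

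Likeness between genes was measured as the mean absolute difference of their log2 deviations over the 10 lines, among 151 genes (the other 9 and the 142). The closest of the pairs was Npm1 with Sdad1, a large-subunit export factor, at 0.045, while the median distance from Npm1 to the 151 was 0.13. Fbl was nearest to Npm1 (0.052), Ubtf to Ppan (0.053), Rrn3 to Naf1 (0.058), Polr1b to Nol6 (0.059), Polr1c to Nip7 (0.067) and Ncl to Rsl1d1 (0.071). Polr1a lay farther from its nearest gene, Kdm2a (0.099), as did Taf1a from Nol8 (0.11) and Taf1b from Taf1c, another SL1 subunit (0.12). Taf1a was the most distant of the 10 for 7 of the others. The deviations were not scaled, so a distance also depends on how much a gene varies between lines. The SD within diets (log2) was 0.23 for Polr1a, 0.20 for Taf1a and 0.25 for Taf1b. It was 0.14 for Npm1, but 0.22 for Ncl. The points share their libraries and scaling, so these distances are a description.

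Across the 142 other genes of the pathway, 68 were higher and 74 lower in LPD by size, with a median log2 fold change of -0.0053. This near balance moved with the scaling, and in both directions with single lines. With the same total 94 were lower (median -0.04, beside -0.03 over all genes tested), with quantile normalization 90 and with array weights 89. Without LPD line 20, 96 were lower (median -0.06). Fewer were lower without LPD line 1 (59, median 0.024), LPD line 6 (60, median 0.020) or NPD line 51 (66, median 0.019). At an unadjusted p under 0.05 there were 6 higher and 2 lower, 5.63% in all beside 5.02% of all genes tested, and none had an adjusted p under 0.1. Without LPD line 40, 1 of them, Atf4, did (adjusted p = 0.0943, limma). Without LPD line 20 the number lower was 15 (10.6%, beside 2.29% of all genes tested). That line was the highest for 71 of the 142 but for 14.4% of all genes tested. Leaving it out therefore had to lower the LPD means of those 71, and no conclusion is drawn from the 15. The number lower was 1 without LPD line 1, LPD line 6, NPD line 21, NPD line 36 or NPD line 51. Ttf1, Taf1d, Polr3d and Atf4 stayed past 0.05 whichever line was left out, while Cavin1, Nop58 and Polr3gl lost it in 7 and Noc2l in 8 of the 10 cases. Ttf1 was the only one of the 142 whose diets did not overlap, with all LPD lines below all NPD lines, as in 0.495% of all genes tested.

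Of the 10 other Pol I subunits, 7 were higher and 3 lower by size, none had a p under 0.05, and the median was 0.05. The smallest limma p-values were those of Polr1d, the partner of Polr1c (0.12 ± 0.12, SE, adjusted p = 0.994, exact permutation p = 0.381), and Polr2k, a small subunit common to the nuclear polymerases (0.10 ± 0.12, SE, adjusted p = 0.994, exact permutation p = 0.373).

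Of the 7 other initiation and termination factors, 3 were higher and 4 lower by size, with a median of -0.01, and 2 of the higher and 1 of the lower had an unadjusted p under 0.05. Ttf1 (chr2:29060262-29087656) encodes the protein that stops Pol I at the end of the rDNA gene. It measured 571, 458, 473, 470 and 526 in LPD and 575, 604, 577, 739 and 799 in NPD. LPD line 1 and NPD line 8 nearly touched, and the log2 fold change was -0.39 ± 0.12 (SE, limma p = 0.00681, adjusted p = 0.684, exact permutation p = 0.00794). Taf1d (chr9:15306214-15316991), a further SL1 subunit, measured 1909, 2175, 1652, 1903 and 2089 in LPD and 1477, 1368, 1681, 1554 and 1669 in NPD. All LPD lines but line 6 were above every NPD line, with a log2 fold change of 0.33 ± 0.09 (SE, limma p = 0.00461, adjusted p = 0.665, exact permutation p = 0.0238). Cavin1 (chr11:100956733-100970887), once named for releasing Pol I transcripts and better known as a coat protein of caveolae, measured 844, 900, 4461, 2591 and 1835 in LPD and 1031, 879, 953, 773 and 1253 in NPD. Its log2 fold change of 0.85 ± 0.38 (SE, limma p = 0.0437, adjusted p = 0.982, exact permutation p = 0.127) rested on LPD lines 6, 20 and 40, and it was 0.51 without LPD line 6. LPD line 6 was also high in the sums of fibroblast markers (3353) and trophectoderm markers (10338). The latter was mostly Krt8 (4577) and Krt18 (3053). Gata3 (265) and Eomes (382) were also above their means of both diets there, and Cdx2 (29.2) lay between its means. Tfap2c (2030) and Elf5 (1.92, under the filter on low values) were below their means of both diets. NPD line 15 had a higher fibroblast sum (5677) with Cavin1 at 879. LPD lines 20 and 40 had fibroblast sums of 330 and 307 and trophectoderm sums of 3301 and 3602. The part of such markers in the Cavin1 value was not tested. Taf1c, the remaining TAF1 gene, had a log2 fold change of -0.01 ± 0.15 (SE, adjusted p = 0.997, exact permutation p = 0.952).

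Of 14 rDNA chromatin and silencing factors, 5 were higher and 9 lower by size, none had a p under 0.05, and the median was -0.06. Rrp8, a silencing factor that is also known as nucleomethylin, had a log2 fold change of 0.27 ± 0.15 (SE, adjusted p = 0.994, exact permutation p = 0.214), and Baz2a, the large subunit of the nucleolar remodelling complex, one of -0.14 ± 0.08 (SE, adjusted p = 0.994, exact permutation p = 0.0556).

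Of 13 snoRNP core proteins, 8 were higher and 5 lower, with a median of 0.02. Nop58, a scaffold of the particles that carry fibrillarin, had a log2 fold change of 0.32 ± 0.14 (SE, limma p = 0.0460, adjusted p = 0.987, exact permutation p = 0.0794). It measured 4944, 5600, 6224, 8754 and 4944 in LPD and 4345, 4348, 5183, 4966 and 5128 in NPD, so that LPD lines 4, 6 and 20 were above all NPD lines and without LPD line 20 the log2 fold change was 0.18. For Nufip1, a snoRNP assembly factor, it was 0.15 ± 0.11 (SE, adjusted p = 0.994, exact permutation p = 0.167).

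The processing machinery was nearly even. In the small-subunit processome 13 of 28 genes were higher and 15 lower, none with a p under 0.05, and the smallest limma p-values were those of Nol6 (-0.20 ± 0.11, SE, adjusted p = 0.994, exact permutation p = 0.103) and Utp20 (-0.25 ± 0.15, SE, adjusted p = 0.994, exact permutation p = 0.206). Of 28 large-subunit processing factors 14 were higher and 14 lower. Noc2l had a log2 fold change of -0.19 ± 0.09 (SE, limma p = 0.0442, adjusted p = 0.986, exact permutation p = 0.0476), with all LPD lines but line 20 below every NPD line, and Nle1 had -0.34 ± 0.17 (SE, adjusted p = 0.994, exact permutation p = 0.0873).

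Of 14 tested nucleolar scaffold and chaperone genes 6 were higher and 8 lower, and the smallest limma p-values were those of Nvl (-0.16 ± 0.09, SE, adjusted p = 0.994, exact permutation p = 0.119) and Nol8 (0.13 ± 0.10, SE, adjusted p = 0.994, exact permutation p = 0.206). Among 11 subunits of RNA polymerase III, which makes the smallest ribosomal RNA and the transfer RNAs, 5 were higher and 6 lower by size. Polr3d measured 1327, 1126, 1370, 1265 and 991 in LPD and 874, 904, 904, 1022 and 1075 in NPD, a log2 fold change of 0.34 ± 0.11 (SE, limma p = 0.00735, adjusted p = 0.699, exact permutation p = 0.0238). Polr3gl, a subunit with a paralogue in pluripotent cells, had 0.33 ± 0.14 (SE, limma p = 0.0387, adjusted p = 0.982, exact permutation p = 0.0794).

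Of 17 upstream regulators of Pol I, 7 were higher and 10 lower, with a median of -0.03. Atf4, a stress-response transcription factor that the study itself singled out on these samples and that is therefore no independent evidence, had the smallest p of the pathway (log2 fold change 0.48 ± 0.11, SE, limma p = 9.08e-04, adjusted p = 0.435, exact permutation p = 0.0159). Mapk9, the kinase JNK2 that can inactivate RRN3, had -0.18 ± 0.11 (SE, adjusted p = 0.994, exact permutation p = 0.127).

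**Figure D5:**
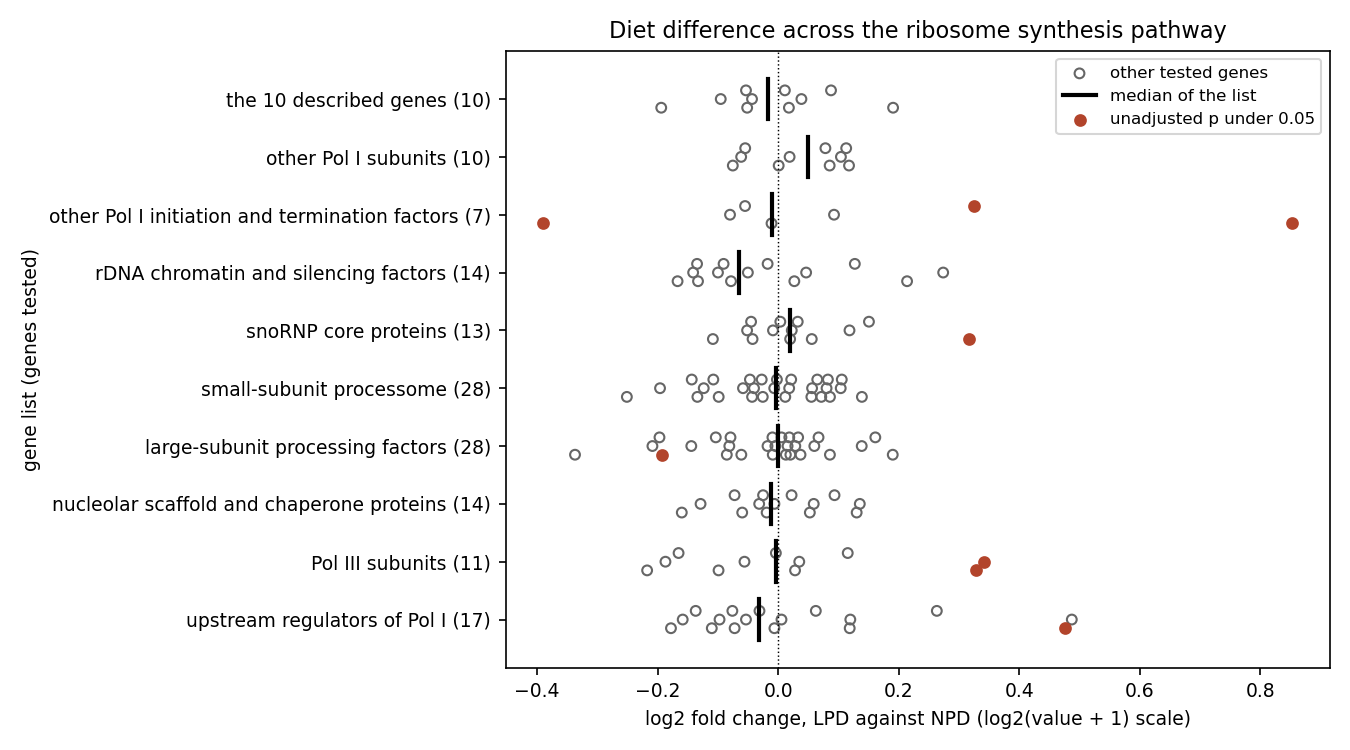
Log2 fold change of LPD against NPD (horizontal axis, log2(value + 1) scale) for each tested gene of the 10 described genes and of 9 other lists of ribosome synthesis, with the number tested in brackets and a bar at each list's median. The medians lie between -0.06 and 0.05, and filled points mark the 8 genes with an unadjusted p under 0.05, from Ttf1 at -0.39 to Cavin1 at 0.85.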

How the data were processed

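mRNA of the 10 ESC lines was sequenced after oligo(dT) selection. According to the paper and the submitters' processing notes, the authors trimmed reads with cutadapt, quantified GRCm38 transcripts with Salmon and tested them with sleuth 0.30.0. The deposited file gives for each gene a normalized signal (scaled by the authors with DESeq2 if its name is right). The paper speaks of TPM normalization, but the values were taken here as scaled estimated counts, because the totals differ between lines and, in genes with 1 transcript, a single value of 1 read per line fitted the low values. How transcripts were summed to genes is not given in the sources used here. Within a tolerance of 0.15, 92.8% to 99.7% of low values of genes with 1 transcript were whole multiples of the value of 1 read, but 67.7% to 74.4% over all genes, so whole reads were not recovered for the table and no count model was used. The main test was limma 3.58.1 on log2(value + 1) for genes whose 10-line mean was 10 or more (two-sided, lmFit and eBayes with a trend and no covariate, R 4.3.3), Benjamini-Hochberg adjusted over 14354 genes, with thresholds of 0.1 (adjusted) and 0.05 (unadjusted). Single genes were also tested by two-sided exact permutation over lines. The scripts were tested on simulated data. The genes and lists were chosen with earlier results of these data known. Besides the 10 genes, the text names from each list the 2 genes of smallest p, the nearest gene to each of the 10 and any list gene with an adjusted p under 0.1, while Cavin1 and Npm2 were named after their values were seen. Positions are from GENCODE M21 on GRCm38. Other steps used Python 3.11.15 (pandas 2.3.3, numpy 2.4.6, scipy 1.17.1) and matplotlib 3.10.9. The alternatives were a pseudocount of 0.5 or 10, a filter at a mean of 100 or none, the same total, quantile normalization, no trend, robust eBayes, array weights, an exact rank test, total exon length, and each line left out. Leaving out LPD line 4 and NPD line 15 together, and coding length, were chosen after seeing the data.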

Additional observations from a re-analysis of the deposited data

Results flagged for a closer look

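In 36 named genes each diet group was searched for a line whose gap to its nearest neighbour exceeded 0.71 of the group's range (Dixon's 95% critical value for 5 lines), and 6 of 72 groups had such a line, where chance gives about 1 in 20, or 3.6. Rrn3 in LPD line 20 was 5213, against 3661 to 4023 in the other LPD lines. Taf1a in LPD line 40 was 208, against 297 to 318. Polr1a in NPD line 21 was 1635, against 2110 to 2254 in the other NPD lines. Fbl in NPD line 8 was 5950, against 6974 to 7296. Among the other genes of the pathway, Noc2l in LPD line 20 was 3096, against 2468 to 2583, and Nip7 in the same line was 2073, against 1658 to 1771.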

How the results depend on the processing

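No paired analysis was possible because the line numbers are names of cell lines and the diets share none of them. For the 10 genes, 184 of 210 log2 fold changes under alternatives kept their direction and their side of an unadjusted p of 0.05, 5 kept their direction and passed it, and 21 changed sign, and the smallest adjusted p was 0.656. The number of the 10 genes called lower in LPD was 1 instead of 0 with array weights, quantile normalization or the same total, and in each case it was Polr1b. When each line was left out, 0 to 1 were called lower (Polr1b without LPD line 20) and 0 to 1 higher (Taf1a without LPD line 40). LPD line 20 was the highest LPD line for Polr1b and LPD line 40 the lowest for Taf1a. No conclusion is therefore drawn from these calls. Pathway genes called lower numbered 7 with array weights, 4 with quantile normalization, 6 with the same total, 1 without a mean-variance trend and 1 without LPD line 4 and NPD line 15, against 2, and 1 to 15 when each line was left out. The 15 were those without LPD line 20, which was the highest line for 71 of the 142. They were 10.6% beside 2.29% of all genes tested in that fit. The count was 1 without LPD line 1, LPD line 6, NPD line 21, NPD line 36 or NPD line 51. Pathway genes called higher numbered 3 without the trend, against 6, and 3 to 6 when each line was left out, with 3 without NPD line 15 or NPD line 36. Genes with an adjusted p under 0.1 numbered 1 with array weights and 0 to 40 when each line was left out, 40 without LPD line 40. With no filter 549 genes were called lower, against 313. Rescaling to the same total moved the median of all genes by -0.03 and gave 2.05% higher and 3.06% lower, with 3 of the 10 genes higher and 7 lower. Signs were turned there in Polr1c (-0.023), Ncl (-0.016), Ppan (-0.029), Naf1 (-0.012) and Nip7 (-0.014). Quantile normalization turned those of Polr1c (-0.019), Ncl (-0.011), Ppan (-0.026), Naf1 (-0.0014) and Nip7 (-0.0030), array weights those of Polr1c (-0.027), Ncl (-0.045), Ppan (-0.058) and Nip7 (-0.042), and leaving out LPD line 4 and NPD line 15 those of Polr1c (-0.030), Ncl (-0.043), Ppan (-0.0017) and Taf1c (0.045). When each line was left out, the log2 fold changes that changed sign ranged from -0.11 to 0.038 for Ubtf, -0.0062 to 0.12 for Rrn3, -0.20 to 0.0093 for Taf1b, -0.042 to 0.11 for Polr1a, -0.036 to 0.054 for Polr1c, -0.081 to 0.080 for Ncl, -0.063 to 0.065 for Ppan, -0.082 to 0.093 for Naf1, -0.12 to 0.081 for Taf1c, -0.033 to 0.093 for Nip7, -0.018 to 0.12 for Rsl1d1 and -0.080 to 0.026 for Sdad1. The SD within diets (log2) ranged from 0.084 to 0.18 for Rrn3, lowest without LPD line 20, from 0.091 to 0.22 for Taf1a, lowest without LPD line 40, and from 0.091 to 0.15 for Npm1, lowest without LPD line 20. Per kilobase of total exon length the levels were 884 for Ubtf, 908 for Rrn3, 112 for Taf1a, 176 for Polr1a, 305 for Polr1b, 1078 for Polr1c, 3500.2 for Ncl, 13174 for Npm1 and 1606 for Fbl. Per kilobase of coding length they were 2527 for Ubtf, 1992 for Rrn3, 213 for Taf1b, 407 for Polr1a, 519 for Polr1b, 2366 for Polr1c, 16813 for Ncl, 40080 for Npm1 and 6889 for Fbl. Of the 8 pathway genes called, Ttf1, Taf1d, Polr3d and Atf4 stayed past an unadjusted p of 0.05 in all 10 fits with a line left out and in 10 others, while Nop58, Polr3gl and Cavin1 lost it in 7 of the 10 and Noc2l in 8. Depth was lowest in LPD line 4, and the number of lines limits the precision. The causes were not tested.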
